A study of Bos taurus with 6 samples.

Results

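The 9 genes described here encode the main enzymes that write, maintain, remove and read cytosine methylation, namely the DNA methyltransferases DNMT1, DNMT3A and DNMT3B, the ring finger proteins UHRF1 and UHRF2, the dioxygenases TET1, TET2 and TET3, and the methyl-CpG reader MBD2. They were taken by gene symbol from expression tables of 32183 genes, in which each of the 9 symbols had 1 entry. The RNA came from rumen epithelial primary cells (REPC), a cell preparation whose single donor, a Holstein bull calf, was 2 weeks of age and had milk replacer as its sole feed. In 3 cultures the medium contained 5 mM butyrate for 24 h, and 3 control cultures received none. All 6 cultures therefore trace back to the same calf, so that the spread between them is a spread between cultures and not between animals.

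Methylated cytosine in CpG dinucleotides is copied after DNA replication by DNMT1, which is brought to the half-methylated daughter strands by UHRF1, a protein that binds such DNA and ubiquitinates histone H3. DNMT3A and DNMT3B place methyl groups on DNA that carried none. The TET enzymes oxidize methylated cytosine, after which TDG and base excision repair can restore plain cytosine. MBD2 binds methylated CpG and belongs to the NuRD complex, which contains the histone deacetylases HDAC1 and HDAC2. Butyrate, a short-chain fatty acid made by rumen microbes, inhibits histone deacetylases and slows the cell cycle in many cell types.

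Expression was given as FPKM, fragment numbers scaled to transcript length and library depth, so that levels can be compared between genes. Tests used limma on log2(FPKM + 0.1) for the 15813 genes whose FPKM averaged 0.1 or more, with Benjamini-Hochberg adjustment over all of them. A gene is said to have risen or fallen where its adjusted p was under 0.05. The epithelial label was checked with 16 marker genes, which were all detected, with control means of 3859 for KRT17, 401 for KRT5 and 49.8 for CDH1. KRT17 and CDH1 did not pass. KRT5 fell, with a small log2 fold change of -0.17 that was not checked under other scalings. The largest rises were in CLDN4 from a mean of 4.61 to 45.4, KRT14 from 72.5 to 500 and EPCAM from 0.540 to 3.33. Fibroblast markers were also present. Their summed FPKM was between 4356 and 4512 in control and between 6374 and 6715 after butyrate, mostly from VIM and COL1A1. COL1A2 and COL3A1 had control means of 459 and 313. THY1 rose from a mean of 21.5 to 87.6, PDGFRA from 0.306 to 0.967 and LUM from 0.149 to 0.540. PDGFRB and FAP had means of 0.0821 or lower in both groups. Of 6 immune markers, PTPRC and MS4A1 were listed at 0 in all cultures, CD68 rose from a mean of 0.595 to 1.21, CD14 had 5.57 and 6.80 and did not pass, and the list summed to 5.12 to 7.15 in control and 7.23 to 9.48 after butyrate. Of 5 endothelial markers, CDH5 was listed at 0 in all cultures, VWF rose from 0.456 to 3.31 and PECAM1 from 1.54 to 3.95, and the list summed to 1.97 to 2.16 in control and 6.48 to 8.43 after butyrate. The fibroblast markers rose in all 8 members tested, and epithelial markers rose in 12 and fell in 1 of 16. Among all tested genes, 32.5% rose and 25.9% fell. The part of shifts between cell types in the results was not tested. In bulk RNA, fewer cells of a type and less RNA per cell cannot be told apart. The FPKM of a culture summed to 678035 to 681912 in control and 619401 to 629037 after butyrate, and the median log2 fold change of all tested genes was 0.10, which rescaling to a common sum moved by 0.12 and quantile normalization moved by -0.15.

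In control cultures the 9 genes covered a wide range of levels. MBD2 was highest with a mean FPKM of 26.2 ± 3.84 (SD, n = 3), above UHRF2 and UHRF1 at 18.2 ± 0.672 (SD, n = 3) and 17.1 ± 0.815 (SD, n = 3), whose values overlapped. DNMT1 followed with 13.5 ± 1.19 (SD, n = 3). A gap separated these from DNMT3A at 1.29 ± 0.309 (SD, n = 3) and TET2 at 1.11 ± 0.107 (SD, n = 3), which overlapped with each other. TET3, TET1 and DNMT3B, at 0.178, 0.0995 and 0.0968, were the lowest and their ranges overlapped. After butyrate the order changed in its upper part, since UHRF1 went from the third to the sixth place, below DNMT3A and TET2 with no overlap. MBD2 and UHRF2 were still the highest, at 12.6 and 10.8, and their values now overlapped.

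**Figure D1:**
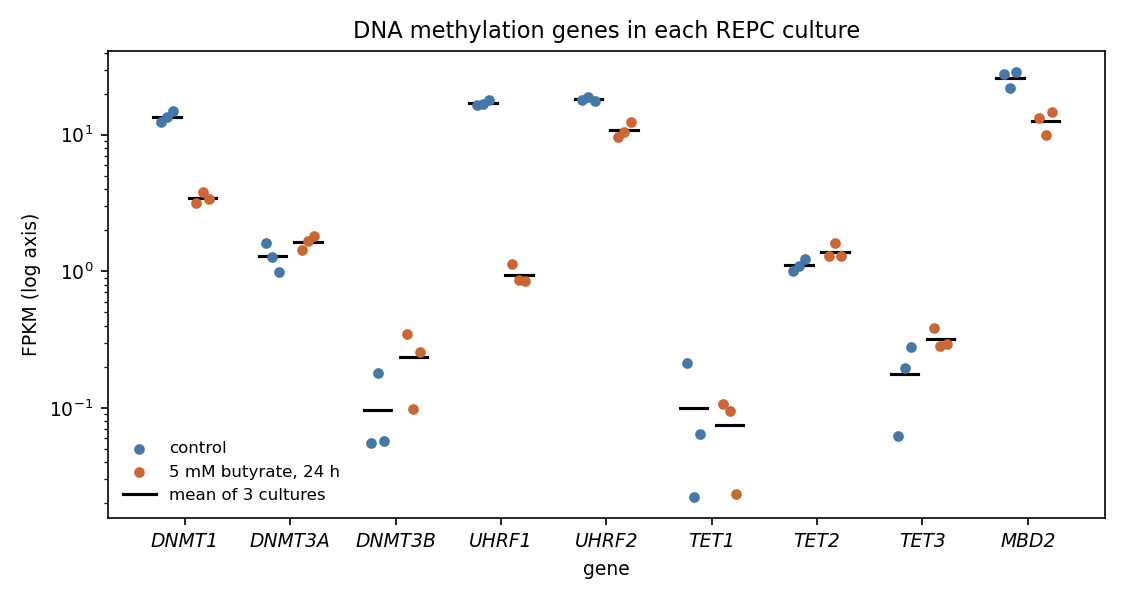
FPKM on a log axis of the 9 DNA methylation genes, with 1 point for each of 3 control (blue) and 3 butyrate (orange) cultures and a line at the mean of each group. The butyrate points of UHRF1 lie near 1 while its control points lie near 17, and DNMT1, UHRF2 and MBD2 also have every butyrate point below every control point.

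UHRF1 showed the largest change of the 9 genes. UHRF1 lies on chromosome 7 from 20436668 to 20470870 in the UMD3.1 coordinates of the tables. In control cultures 1 to 3 it reached 16.6, 16.7 and 18.0 FPKM, against 1.13, 0.862 and 0.843 in butyrate cultures 1 to 3. The groups were far apart, and the highest upper confidence bound given with a butyrate value, 1.59, was below the lowest lower bound of a control value, 14.7. The mean after butyrate was 5.54% of the control mean. On the log2 scale UHRF1 changed by -4.05 (SE 0.15, limma adjusted p = 1.6e-07), and 57 of the tested genes had a lower value. The confidence bounds imply about 1020 fragments on UHRF1 in the control cultures together and about 62.7 in the butyrate cultures.

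UHRF2, the paralog of UHRF1, lies on chromosome 8 from 38568744 to 38625344. UHRF2 shares the domain layout of UHRF1 but is not known to replace it in maintenance methylation. Its FPKM was 18.0, 19.0 and 17.7 in the control cultures and 9.60, 10.4 and 12.4 in the butyrate cultures. Each butyrate value was below each control value, and the mean was 59.3% of that in control. UHRF2 fell by 0.76 on the log2 scale (SE 0.11, limma adjusted p = 0.00032), a smaller fall than that of UHRF1. UHRF1 made up 46.7 to 50.4% of the summed FPKM of both genes in control and 6.34 to 10.6% after butyrate.

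Among the methyltransferases, the maintenance enzyme fell and the de novo enzymes did not pass the test. DNMT1 lies on chromosome 7 from 15906315 to 15967867. Its FPKM was 12.4, 13.4 and 14.8 in control and 3.17, 3.81 and 3.38 after butyrate. The lowest control value was thus far above the highest butyrate value, and the control mean was 3.92 times the butyrate mean. DNMT1 fell by 1.94 on the log2 scale (SE 0.12, limma adjusted p = 2.3e-06).

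DNMT3A, on chromosome 11 from 73963486 to 74066746, had an FPKM of 1.61, 1.27 and 0.989 in control and 1.42, 1.68 and 1.81 after butyrate. The groups overlapped, because control replicate 1 was above butyrate replicate 1. The log2 fold change was 0.34 with a 95% interval from -0.19 to 0.87 (limma adjusted p = 0.24), which leaves room for no change and for a rise of moderate size but not for a fall like that of DNMT1. DNMT3B, on chromosome 13 from 62688523 to 62722422, was close to the limit of detection, with 0.0548, 0.178 and 0.0570 in control and 0.350, 0.0986 and 0.256 after butyrate. The confidence bounds imply about 2.45 and 9.99 fragments in the 2 groups, and the lower bound was 0 in 5 of 6 cultures. In control cultures 1 and 3 the implied number was 0.3, less than a whole fragment. The approximation is thus unreliable for DNMT3B, and these totals are not fragment counts. The log2 fold change of DNMT3B was 0.74 with a 95% interval from -0.37 to 1.85 (limma adjusted p = 0.22), an interval that holds falls as well as rises. The size of both values was not stable. The DNMT3B log2 fold change was 0.17 with a pseudocount of 1, 1.22 with a pseudocount of 0.01 and 0.49 without butyrate replicate 1. The DNMT3A log2 fold change was 0.18 without control replicate 3, 0.50 without control replicate 1 and 0.21 with a pseudocount of 1. With quantile normalization DNMT3A and DNMT3B had -0.09 and -0.20.

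The make-up of methyltransferase RNA differed between the groups. The summed FPKM of the 3 DNMT genes was 14.9 ± 0.878 (SD, n = 3) in control and 5.32 ± 0.342 (SD, n = 3) after butyrate. DNMT1 contributed 88.2, 90.3 and 93.4% of this sum in control and 64.1, 68.2 and 62.1% after butyrate. The share of DNMT3A was 8.73% ± 2.59 (SD, n = 3) in control and 30.7% ± 2.25 (SD, n = 3) after butyrate. The shares of the cultures did not overlap between groups (two-sided exact permutation p = 0.1, which is the lowest that 3 cultures against 3 allow). FPKM compares RNA per length only, and enzyme amounts or activities were not measured.

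**Figure D2:**
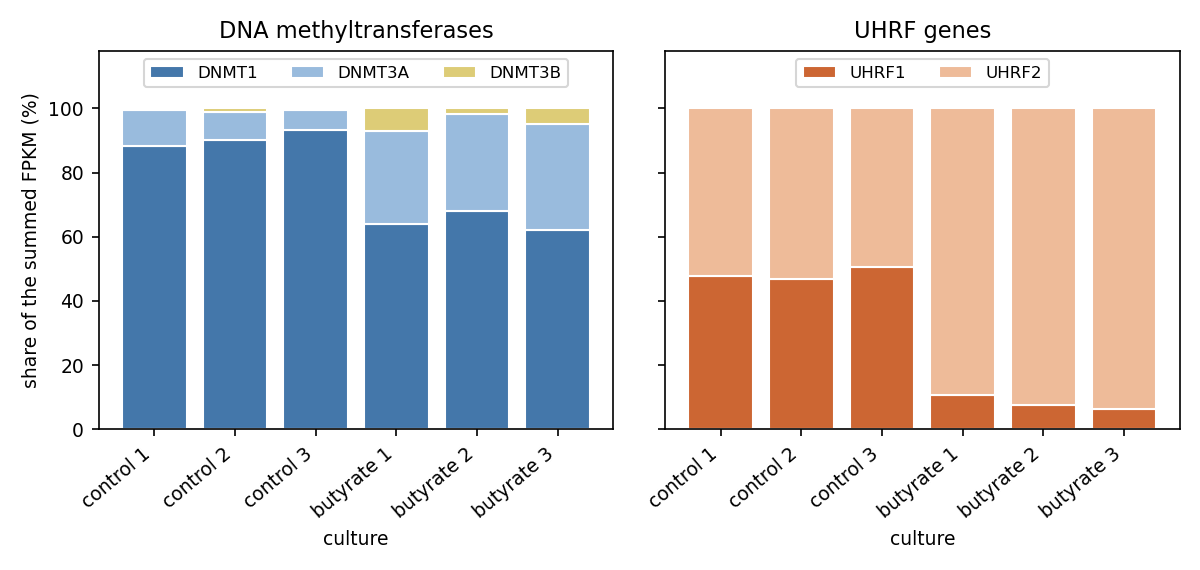
Share in percent of the summed FPKM that each DNMT gene (left) and each UHRF gene (right) contributed in each of the 3 control and 3 butyrate cultures, as stacked bars that add up to 100. DNMT1 takes 88.2 to 93.4% in control and 62.1 to 68.2% after butyrate, and UHRF1 goes from 46.7 to 50.4% down to 6.34 to 10.6%.

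None of the TET genes passed the test. TET2, on chromosome 6 from 21175042 to 21317790, was the most abundant, with an FPKM of 1.01, 1.09 and 1.22 in control and 1.29, 1.60 and 1.29 after butyrate. Every butyrate value lay above every control value, by a small margin. The log2 fold change of TET2 was 0.31 with a 95% interval from -0.17 to 0.78 (limma adjusted p = 0.24). TET3, on chromosome 11 from 10540092 to 10571581, had an FPKM of 0.0618, 0.195 and 0.277 in control and 0.387, 0.286 and 0.293 after butyrate. The butyrate values were above the control values, although butyrate replicate 2 exceeded control replicate 3 by little. The log2 fold change of TET3 was 0.68 with a 95% interval from -0.29 to 1.65 (limma adjusted p = 0.20). With quantile normalization the log2 fold changes of TET2 and TET3 were -0.15 and -0.20, also short of the threshold. The TET3 log2 fold change was 0.33 without control replicate 1, 0.17 with a pseudocount of 1 and 1.02 with a pseudocount of 0.01, and the TET2 log2 fold change was 0.18 with a pseudocount of 1.

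TET1, on chromosome 28 from 25062347 to 25192041, did not reach the mean FPKM of 0.1 that was needed for a test. Its FPKM was 0.211, 0.0224 and 0.0647 in control and 0.106, 0.0949 and 0.0235 after butyrate, which corresponds to about 20.0, 2.0 and 6.0 implied fragments and to 9.0, 8.0 and 2.0. The control cultures differed by more among themselves than the group means did from each other, and a change of TET1 was not detectable in these cultures. Without the filter the TET1 log2 fold change was -0.11 (limma adjusted p = 0.84), and it was -0.41 (limma adjusted p = 0.57) without control replicate 2, which was the lowest of the controls. TET2 accounted for 78.2 to 83.4% of the summed FPKM of the 3 TET genes in control and for 72.4 to 80.8% after butyrate, with overlap. That sum was 1.38 ± 0.154 (SD, n = 3) in control and 1.79 ± 0.185 (SD, n = 3) after butyrate.

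MBD2, the methyl-CpG reader of the set, was lower in all treated cultures. MBD2 lies on chromosome 24 from 54044119 to 54093694. Its FPKM was 28.1, 21.8 and 28.8 in control and 13.4, 9.95 and 14.6 after butyrate. Replicate 2 was the lowest in both groups, and the groups did not overlap. The mean after butyrate was 48.1% of that in control, a fall by 1.06 on the log2 scale (SE 0.16, limma adjusted p = 0.00047).

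Of the 8 members tested, 4 fell and 0 rose, and at an unadjusted p under 0.05 limma also gave 4 and 0. Among all tested genes, 25.9% fell and 32.5% rose by the same rule, so that changes in both directions were common in these cells, and 50% of the 8 members fell. The balance over all genes turned with the scaling, from 5144 higher and 4091 lower to 4284 higher and 4679 lower with quantile normalization, and it was 5924 higher and 3387 lower after rescaling to TPM, while 4 members fell under each. All 3 butyrate values were below all control values in 4 of the 9 members, against 28.9% of tested genes, and above them in 2 members, TET2 and TET3, against 36.1% of tested genes. The median log2 fold change of the 8 members was -0.23, beside 0.10 for all genes. The study called a gene differentially expressed (DEG) when it changed by more than 2 on the log2 scale at a p under 0.05 after Bonferroni correction. Here these thresholds were applied to the limma fit and not to the study's Cufflinks test, so the calls are not the study's own. UHRF1 was the 1 member called, as lower, and no member was called as higher. Among all tested genes, 1.51% were called as lower and 2.46% as higher. Without the fold threshold, UHRF1 and DNMT1 made 2 members lower, against 6.97% of tested genes. DNMT1 had a Bonferroni p of 0.0020 from limma and missed the fold threshold by little. It passed both when control replicate 1 or butyrate replicate 2 was left out, which made 2 members called.

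**Figure D3:**
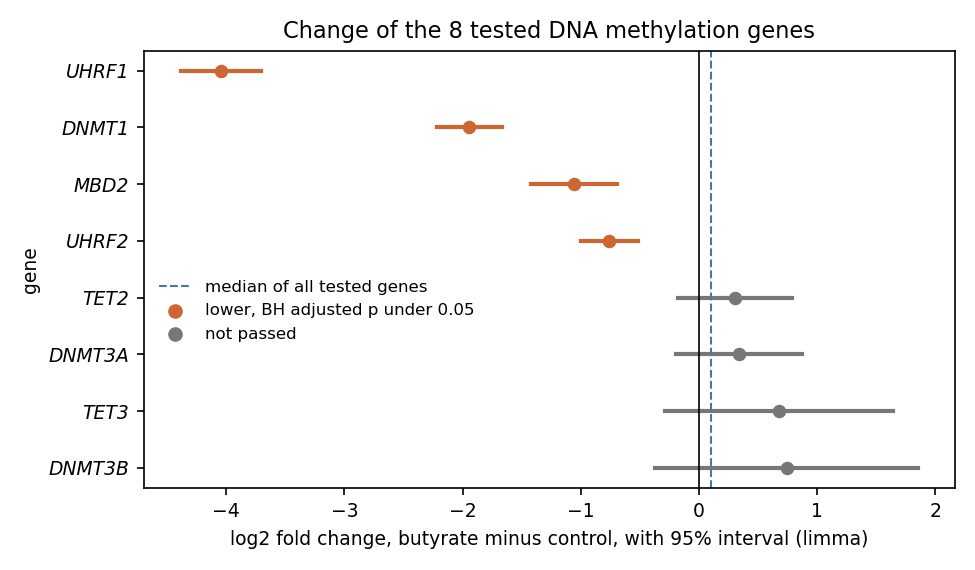
Log2 fold change (butyrate minus control) with its 95% interval from limma for the 8 tested genes; orange marks genes lower at a Benjamini-Hochberg adjusted p under 0.05, grey the others, and the dashed line the median of all tested genes at 0.10. UHRF1 at -4.05 and DNMT1 at -1.94 stand far to the left, and the intervals of TET2, DNMT3A, TET3 and DNMT3B include 0.

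Ratios between genes within a culture depend little on how cultures were scaled to each other, and 8 of them were compared. The log2 ratio of UHRF1 to UHRF2 was -0.12, -0.19 and 0.02 in control and -2.98, -3.45 and -3.73 after butyrate, a difference of -3.29. The log2 ratio of UHRF1 to DNMT1 was 0.41, 0.31 and 0.28 in control and -1.40, -2.02 and -1.89 after butyrate, a difference of -2.11. UHRF1 was thus slightly above its partner in every control culture and well below it in every butyrate culture. The log2 ratio of DNMT1 to DNMT3A differed by -2.28. For these 3 ratios the groups did not overlap (two-sided exact permutation p = 0.1, the lowest possible here, and 0.16 after Benjamini-Hochberg adjustment over the 8 ratios). For DNMT3B to DNMT3A, TET3 to TET2 and TET1 to TET2 the cultures overlapped, with differences of 0.40, 0.37 and -0.42 and exact permutation p of 0.5, 0.5 and 0.6.

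UHRF1 and DNMT1 are transcribed mainly in dividing cells, so their values were set beside 21 genes of DNA replication and division. All 21 fell, against 25.9% of all tested genes, with a median log2 fold change of -3.55. They included CCNB2, CCNA2 and CCNB1, cyclins of mitosis and S phase, at -5.95, -5.76 and -5.37. The part of cell division in the falls of UHRF1 and DNMT1 was not tested. PCNA, the sliding clamp that DNMT1 binds at the replication fork, had an FPKM of 52.5, 49.0 and 52.6 in control and 6.48, 6.41 and 6.73 after butyrate, a log2 fold change of -2.95. The fall of UHRF1 was larger and that of DNMT1 smaller than this. The log2 ratio of UHRF1 to PCNA differed between the groups by -1.09 and that of DNMT1 to PCNA by 1.01, the former by -0.42 with a pseudocount of 1, both without overlap (two-sided exact permutation p = 0.1, the lowest possible here, and 0.16 adjusted over the 8 ratios). Of the 21 genes, 19 had a lower log2 fold change than DNMT1, 14 than PCNA and 6 than UHRF1.

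The list of maintenance methylation partners, which also holds DNMT3L of the de novo pathway, was mixed. Of its 14 genes, 8 fell (57.1%) and 2 rose (14.3%), with a median log2 fold change of -0.38. Among all tested genes, 25.9% fell and 32.5% rose. The largest falls after PCNA were those of LIG1, the ligase of replication, at -1.98, and HELLS, the chromatin remodeler that opens DNA for methylation, at -1.72. The FPKM of HELLS was 4.46, 4.66 and 4.61 in control and 1.26, 1.45 and 1.26 after butyrate. DNMT3L, a catalytically inactive relative that stimulates the de novo enzymes, rose from 0.746 ± 0.237 (SD, n = 3) to 1.70 ± 0.316 (SD, n = 3), or by 1.11 on the log2 scale (limma adjusted p = 0.0086). Its call was lost with quantile normalization, at 0.64 and an adjusted p of 0.083 from limma. EHMT2, a histone H3 lysine 9 methyltransferase, rose by 0.71 on the log2 scale.

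**Figure D4:**
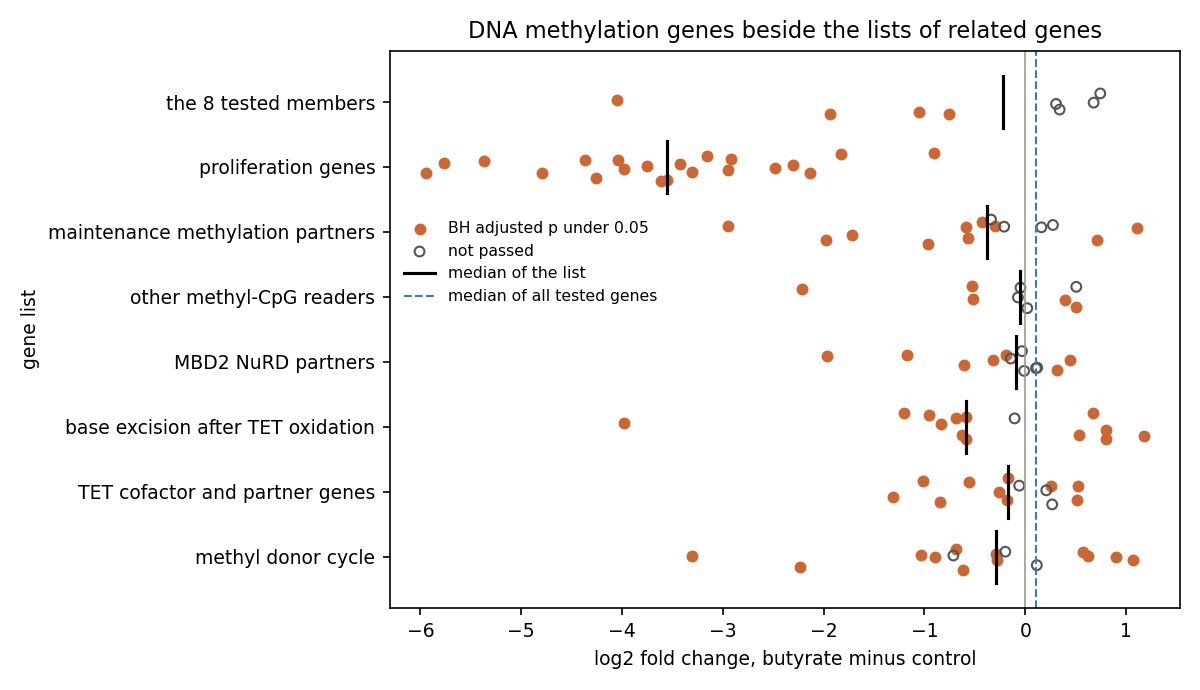
Log2 fold change (butyrate minus control) of the 8 tested members and of each tested gene in 7 related lists, with filled points for a Benjamini-Hochberg adjusted p under 0.05, open points for the others, a black line at the list median and a dashed line at the median of all genes. The 21 proliferation genes lie to the left of 0 with a median of -3.55, and the other lists hold genes on both sides.

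Of the 9 other methyl-CpG readers, 3 fell (33.3%) and 2 rose (22.2%), beside 25.9% and 32.5% of all tested genes. MBD3, the alternative to MBD2 in NuRD, had an FPKM of 17.2, 16.9 and 17.6 in control and 2.18, 6.34 and 3.45 after butyrate. The treated cultures were spread widely but all far below the controls, and the log2 fold change was -2.21 (limma adjusted p = 0.00034). MBD4 and MBD1 fell by 0.53 and 0.52 on the log2 scale. ZBTB38 and ZBTB33, zinc finger proteins that bind methylated DNA, rose by 0.50 and 0.39.

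Among 12 NuRD partners of MBD2, 5 fell (41.7%) and 2 rose (16.7%), beside 25.9% and 32.5% of all tested genes. CHD3, a remodeling ATPase of the complex, had a mean FPKM of 5.07 in control and 1.22 after butyrate, with a log2 fold change of -1.97. RBBP7, a histone chaperone, fell by 1.17 on the log2 scale and MTA2 by 0.61. HDAC1 and HDAC2 had log2 fold changes of -0.03 and 0.11 and did not pass. The rises of MTA1 and GATAD2A, 0.44 and 0.31, were not stable, since 0 genes of the list rose when control replicate 2, control replicate 3, butyrate replicate 1 or butyrate replicate 3 was left out, and 1 rose without control replicate 1.

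Downstream of TET oxidation, 8 of 14 genes of base excision and its helpers fell (57.1%) and 5 rose (35.7%), with a median of -0.59. Among all tested genes these shares were 25.9% and 32.5%. TDG, the glycosylase that removes oxidized methylcytosine, had an FPKM of 15.3, 12.7 and 15.4 in control and 6.62, 7.60 and 7.95 after butyrate, a log2 fold change of -0.96 (limma adjusted p = 0.00013). NEIL3, a glycosylase of dividing cells, fell by 3.99 and the repair scaffold XRCC1 by 1.20. The glycosylase NEIL1 rose by 1.18, and the stress proteins GADD45A and GADD45B, which have been linked to demethylation, rose by 0.81 and 0.80. GADD45G of the same family went the other way, with a log2 fold change of -0.63 (limma adjusted p = 0.0032).

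Genes of the metabolism around the substrates of the TET and DNMT enzymes moved both ways, and not all of them supply a substrate. Of 13 genes listed for the cofactors and partners of TET enzymes, 7 fell (53.8%) and 3 rose (23.1%). Among all tested genes these shares were 25.9% and 32.5%. The largest falls were in mitochondrial isocitrate dehydrogenases, IDH3B at -1.32, IDH2 at -1.02 and IDH3A at -0.85. Cytosolic IDH1 rose by 0.51, D2HGDH by 0.52 and CXXC5, a CXXC zinc finger protein, by 0.25. The call of CXXC5 was lost without the filter, without the mean-variance trend and when control replicate 1, control replicate 2, butyrate replicate 2 or butyrate replicate 3 was left out, with log2 fold changes from 0.18 to 0.26. In the methyl donor cycle and the reactions linked to it, 8 of 15 tested genes fell (53.3%) and 4 rose (26.7%). TYMS and MTHFD1, folate enzymes of nucleotide synthesis, fell by 3.31 and 2.23. MTR, the methionine synthase, had a log2 fold change of -1.03, and its call was lost without control replicate 1 or control replicate 3, at -0.99 and -0.90. CBS and AHCYL2 rose by 1.07 and 0.62, and MAT2A, which makes the methyl donor S-adenosylmethionine in most tissues, fell by 0.29 on the log2 scale. The call of MAT2A was not checked under the alternatives. After rescaling to TPM, 6 genes of the methyl donor list fell instead of 8.

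For each member, the genes with the nearest profile over the 6 cultures were sought by the root mean square difference of centred log2 values, among 10923 other named genes averaging 1 FPKM or more (10924 for TET1, TET3 and DNMT3B). Nearest to UHRF1 were NCAPG2, a condensin subunit, at 0.08, and NEIL3 and the topoisomerase TOP2A, both at 0.15. Nearest to DNMT1 was the splicing protein SNRPA at 0.06, followed by EDN2 and VRK1 at 0.08 and 0.09. For MBD2 the nearest were QRSL1, ORC3 and NUP133 at 0.06, 0.10 and 0.11. UHRF2 had the nearest neighbour of all, the helicase DHX30 at 0.01, and DNMT3A was nearest to ZNF219 at 0.05. For TET2 the nearest were UBE2J2, CXXC5 and HIST2H2BE at 0.04, 0.05 and 0.05. For the 3 genes of low level the smallest values were 0.15 for TET3, 0.17 for DNMT3B and 0.21 for TET1. Genes of a similarly low level were left out of the search, so these values cannot be compared with those of the other members. The measure takes in both the difference between the groups and the deviations within them.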

How the data were processed

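RNA was measured in 6 REPC cultures, 3 per group. The authors trimmed reads with Trim Galore 0.4.1, aligned them with STAR, kept uniquely mapped reads and deposited gene FPKM from Cufflinks with confidence bounds; the submitters' processing notes name UMD3.1. Rows were joined by identifier, name and position. A failed estimate removed 2 genes. Chromosomes are those most genes of a sequence have in RefSeq's table for ARS-UCD2.0. Two-sided tests were made in limma (version 3.58.1, R version 4.3.3), letting the variance follow the mean and without a block; the script was tested on simulated data. FPKM holds no counts, so depth was approximated from the bounds, read as FPKM plus 2 Poisson errors, which gave 5756610 to 6186810 fragments per culture; 52.2 to 54.0% of implied numbers below 30 lay within 0.02 of a whole number. Fragment numbers cover counting error only. Exact permutation tests used scipy 1.17.1. Whether cultures were independent isolates is not stated, so p-values measure the spread between cultures.

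The members and gene lists were chosen with earlier results of these data known. Named were all 9 members, up to 3 called genes per direction and list by size of change, and the 3 nearest profiles per member; some genes that this rule names are not reported here. PDGFRB, FAP, VIM, COL1A1, COL1A2, COL3A1, CD14, PTPRC, MS4A1, CDH5, KRT17, CDH1, HDAC1, HDAC2, GADD45G and MAT2A were named after their values were seen. PCNA and TYMS stand in 2 lists each. Other pseudocounts, filters and scalings, a fit without trend, the replicate block and each culture left out were alternatives.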

Additional observations from a re-analysis of the deposited data

How the results depend on the processing

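The falls of UHRF1, DNMT1, MBD2 and UHRF2 kept their direction and their call under all 14 alternatives run for each, with log2 fold changes from -4.34 to -3.22, -2.04 to -1.71, -1.18 to -0.90 and -0.86 to -0.64. In fits across genes, 0 members rose under any of 15 alternatives. With Bonferroni correction and no fold threshold 2 members fell. Members called DEG were 2 with quantile normalization, 2 with Bonferroni and a log2 fold change beyond 1, and 1 to 2 with a replicate left out. Replicate numbers did not pair the cultures, since deviations of same-numbered cultures from their group means correlated across genes with r from -0.0043 to 0.0228, below the 0.1 required. With the replicate block 4 members fell, 0 rose and 1 was a DEG, and it changed no call of the named genes checked. Over all genes the block lowered the limma calls of upregulated DEGs from 389 to 226. These were 213 without a filter, 213 without the trend and 156 to 337 with a replicate left out, and the 238 downregulated DEGs became 141 without the trend. Quantile normalization reversed DNMT3A to -0.088, DNMT3B to -0.20, TET2 to -0.15 and TET3 to -0.20, and left 1 maintenance partner risen. Risen NuRD partners were 1 without a filter, 4 after rescaling to TPM, 0 without the trend and 0 to 2 with a replicate left out. Germline genes risen were 1 with quantile normalization and 1 at a mean FPKM of at least 1, and 1 germline gene fell with quantile normalization and 1 without the trend. With a pseudocount of 1, the difference between the groups in the log2 ratio was -0.043 for DNMT3B to DNMT3A and -0.014 for TET3 to TET2. For TET1 to TET2 this difference lay between -0.71 and 0.018 when 1 replicate was omitted, the reversal to 0.018 coming without control replicate 1. Of 530 values of 38 other named genes, 22 lost their call (CXXC5, GATAD2A, MTA1, MTR, DNMT3L and SYCP3) and 0 changed sign. The causes were not tested. The values of DNMT3B, TET1 and TET3 rest on few fragments.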

Other observations

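Germline genes that are known to be silenced by promoter methylation in body cells were also read. Of 13 such genes, 12 were in the tables and 7 were listed at 0 in all cultures, among them DAZL, DDX4 and TEX101. Only 3 were high enough to be tested, and 2 of them rose, where 32.5% of all tested genes rose. DPEP3 had a mean FPKM of 0.432 ± 0.160 (SD, n = 3) in control and 2.45 ± 0.131 (SD, n = 3) after butyrate, a log2 fold change of 2.31 (limma, Benjamini-Hochberg adjusted p = 0.00014). SYCP3, a protein of the meiotic chromosome axis, had 0.258 ± 0.0619 (SD, n = 3) in control and 0.977 ± 0.309 (SD, n = 3) after butyrate, a log2 fold change of 1.56 (limma, Benjamini-Hochberg adjusted p = 0.0037). ASZ1 had 0.346 and 0.172 and did not pass. DNA methylation at these genes was not analysed here, and its part in the rises was not tested. The paper reports that most DNA methylation was kept in REPC under butyrate, along with a set of differentially methylated regions. Its statement is about the genome as a whole and not about DPEP3 or SYCP3.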
